A study of Mus musculus with 16 samples.

Results

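Cytotoxic granule transcripts were described in mouse CD4+ T cells through 8 genes of the 53090 in the tables: the granzymes Gzma, Gzmb and Gzmk, the pore-forming gene Prf1, and the serpins Serpina3f, Serpina3g, Serpinb9 and Serpinb6b. They were matched by gene symbol, and all 8 were found. Granzymes are serine proteases stored in the granules of cytotoxic lymphocytes. Perforin opens the way for them into the cytosol of a target cell, where they cleave substrates that lead to its death. Serpins are suicide inhibitors of proteases, and several intracellular serpins guard the lymphocyte itself against granzymes or cathepsins that leak from granules. Naïve CD4+ T cells are known for low granzyme expression, and activated T cells, Treg cells included, can take up parts of this programme.

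RNA was sequenced from 16 libraries in 4 groups of 4. The groups were WT Tn and Aim2-/- Tn, which were naïve CD4+ T cells taken from the spleen and not cultured, and WT Treg and Aim2-/- Treg, which were CD4+ T cells after 2 days (48 h) of culture with anti-CD3/CD28 antibodies, recombinant human TGF-beta and recombinant mouse IL-2. All mice were on the C57BL/6 background, and Aim2-/- mice lack the DNA sensor AIM2 in every cell, not in T cells alone. Their ages are not given in the sources used here. The cultured cells were taken whole, with no sort for FOXP3 described for these libraries, so a Treg library is the RNA of a culture. The comparisons ask what loss of AIM2 does in each state, and what culture in Treg conditions does in each genotype.

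Each library held between 22516424 and 34533316 counts, and 3 counts, taken as the floor of measurement, stood for 0.0869 to 0.133 CPM (counts scaled to a library's total). Aim2, the targeted gene, was at 32.3 to 43.3 CPM in the 8 WT libraries and at 6.61 to 10.8 CPM in the 8 Aim2-/- libraries, so some reads were still assigned to it. Cd4 was at 816 to 982 CPM in Tn and 368 to 413 CPM in Treg libraries. Foxp3, the defining Treg gene, was at 1.98 to 4.02 CPM in Tn and 278 to 573 CPM in Treg libraries. Of the other Treg markers followed, Il2ra was at 2.66 to 4.69 CPM in Tn and 1300 to 1512 CPM in Treg libraries. Ikzf2 (2.66 to 3.68 and 3.41 to 14.7 CPM) and Ctla4 (12.8 to 80.6 and 55.1 to 84.2 CPM) overlapped between Tn and Treg libraries. In RNA from bulk samples, fewer cells of a type and less RNA per cell cannot be told apart. The labels number the samples but do not state separate mice or cultures, so p-values measure the spread between these samples, which may be technical. Fold changes come from the quasi-likelihood fit of edgeR, with p-values adjusted over all genes tested by the Benjamini-Hochberg procedure, and a gene was called at an adjusted p under 0.05.

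The 8 genes lie at 5 places in the GRCm38 genome, all protein coding in GENCODE M21. Serpina3f (ENSMUSG00000066363.12, chr12:104214544-104221129) and Serpina3g (ENSMUSG00000041481.16, chr12:104236245-104241939) are neighbours on the plus strand, 15.1 kb apart. Serpinb6b (ENSMUSG00000042842.11, chr13:32965209-32979067) and Serpinb9 (ENSMUSG00000045827.10, chr13:33003250-33017957) are 24.2 kb apart on the plus strand. Gzma (ENSMUSG00000023132.8, chr13:113093825-113100981) and Gzmk (ENSMUSG00000042385.14, chr13:113171608-113225908) are 70.6 kb apart on the minus strand. Gzmb (ENSMUSG00000015437.5, chr14:56258838-56262260, minus strand) and Prf1 (ENSMUSG00000037202.6, chr10:61297833-61304680, plus strand) stand alone among the 8.

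The upstream sequences are shown because they lie before the 3 genes called higher in Aim2-/- Treg than in Aim2-/- Tn cells. They are the 250 bases before the RefSeq start on GRCm38.p6, each written in the direction of the gene: chr12:104214294-104214543 (plus strand) for Serpina3f, chr12:104235897-104236146 (plus strand) for Serpina3g and chr14:56262335-56262584 (minus strand) for Gzmb. Capitals mark the letters of a GAS element, the binding motif of STAT factors (TTCNNNGAA), in the serpins, and of an AP-1 motif (TGANTCA) in Gzmb.
Serpina3f: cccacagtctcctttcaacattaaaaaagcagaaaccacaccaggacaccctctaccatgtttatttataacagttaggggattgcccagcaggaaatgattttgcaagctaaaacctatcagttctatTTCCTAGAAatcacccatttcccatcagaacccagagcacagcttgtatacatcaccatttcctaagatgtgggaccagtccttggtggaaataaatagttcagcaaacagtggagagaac
Serpina3g: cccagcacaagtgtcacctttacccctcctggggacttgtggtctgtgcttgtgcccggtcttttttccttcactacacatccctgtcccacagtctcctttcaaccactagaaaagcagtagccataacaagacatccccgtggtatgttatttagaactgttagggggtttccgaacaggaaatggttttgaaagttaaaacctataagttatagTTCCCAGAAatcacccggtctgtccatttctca
Gzmb: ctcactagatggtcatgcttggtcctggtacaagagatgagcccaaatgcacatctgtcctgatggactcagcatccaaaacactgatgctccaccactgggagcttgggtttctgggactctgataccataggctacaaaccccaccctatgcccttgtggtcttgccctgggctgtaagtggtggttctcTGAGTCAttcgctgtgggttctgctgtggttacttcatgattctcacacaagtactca

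The Serpina3f and Serpina3g windows aligned over 164 columns with 76.8% identical letters, and the GAS letters fell in the aligned stretch of both, as TTCCTAGAA in Serpina3f and TTCCCAGAA in Serpina3g. Because the annotated starts differ, the match began 121 bases before the start of Serpina3f and 33 bases before that of Serpina3g. Before the other annotated start of Serpina3f, the same match began at 210 bases. Over 9 promoter entries for the 8 genes (Serpina3f has 2), searched on both strands, GAS letters stood in these 2 genes alone. Of all 32851 promoter entries, 7.02% held GAS letters in a window of this length. The AP-1 letters were found in Gzmb alone of the 8 and in 6.75% of all entries. A T-box motif (TCACACC) was found in Gzmk and in 3.33%, and a Runx motif (TGTGGTT) in Gzma, Gzmb and Serpina3f and in 4.4%. A match is a description of letters, and binding was not measured here.

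Reads can be shared between similar transcripts. Of all stretches of the read length of 51 bases in GENCODE M21 transcripts, 10% of those of Serpina3f and 15.1% of those of Serpina3g also occur in another gene, mostly in other Serpina3 genes. Serpina3f shares 131 such stretches with Serpina3g. The expected counts of both were not whole in 11 of 16 libraries, so their values rest in part on how the authors' counting split reads, and are uncertain to that extent. For Serpinb6b the share was 2.74%, for Serpinb9 it was 0.349%, and no stretch of Prf1 or of the 3 granzymes occurs elsewhere.

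**Figure D1:**
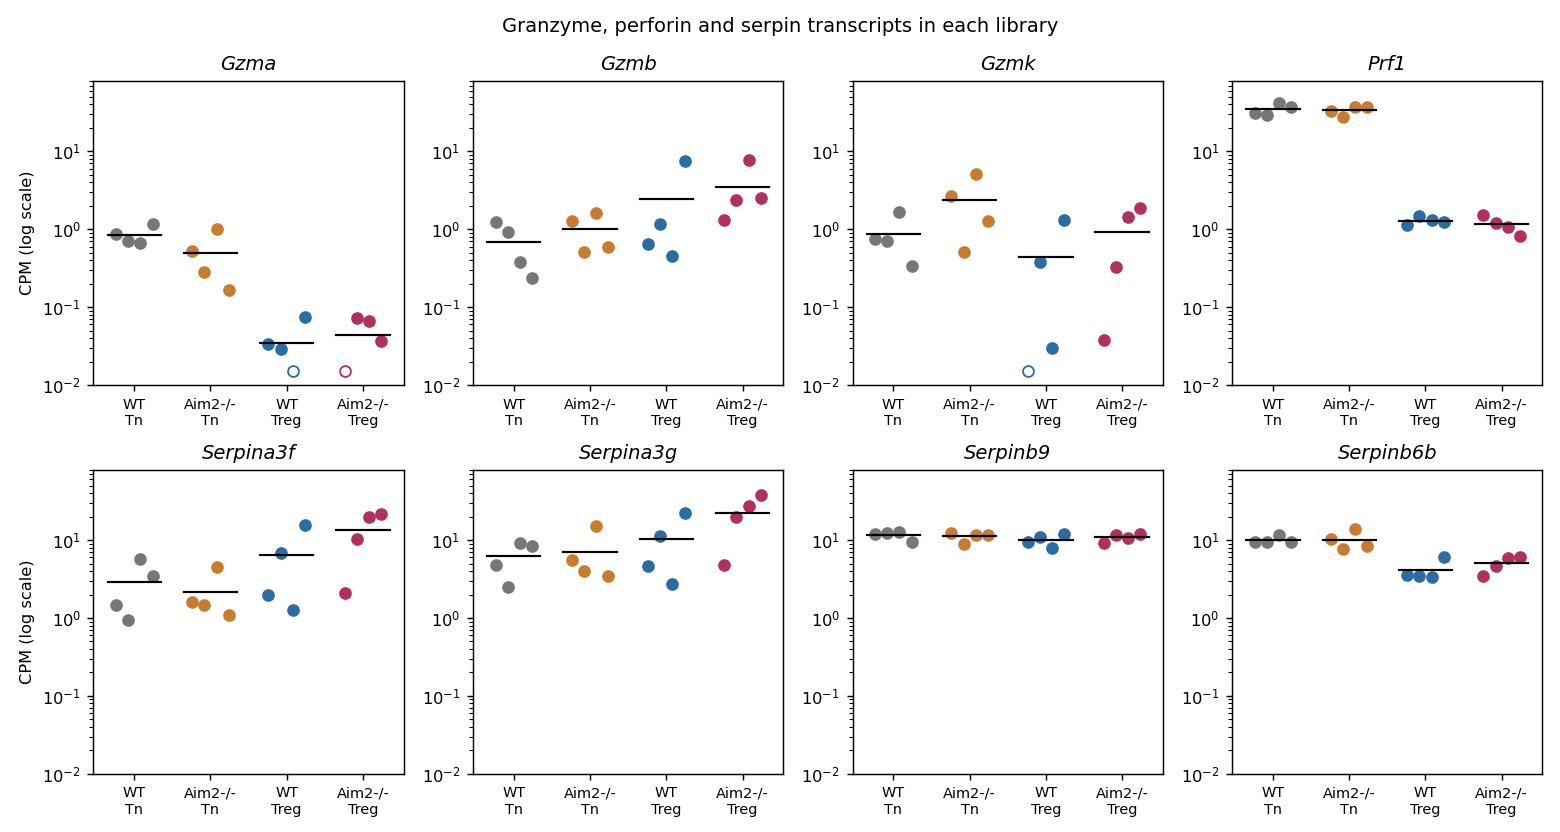
CPM (log scale) of the 8 genes in each of the 16 libraries, in the order of replicates 1 to 4 from left to right within a group. Points are libraries, lines are group means, and open points at the foot are libraries with 0 counts. Prf1 and Gzma are lower in all Treg than in all Tn libraries, while Serpina3f, Serpina3g, Gzmb and Gzmk spread widely among the Treg libraries.

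Prf1, which encodes perforin, had the highest level per transcript length of the 8 genes in Tn cells and fell steeply in culture. It was at 31.4, 29.4, 41.3 and 37.5 CPM in WT Tn replicates 1 to 4 and at 33.4, 27.8, 37.3 and 37.0 CPM in Aim2-/- Tn. In WT Treg it was at 1.15, 1.48, 1.30 and 1.22 CPM, and in Aim2-/- Treg at 1.51, 1.22, 1.08 and 0.817 CPM. Every Tn library was above every Treg library, in both genotypes. The log2 fold change of Treg against Tn was -4.78 ± 0.15 (SE, n = 4 per group, edgeR adjusted p = 5.6e-09) in WT, a 27.5-fold lower level. In Aim2-/- cells it was -4.88 ± 0.18 (edgeR adjusted p = 8.3e-10), 29.4-fold lower.

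Gzma, which encodes granzyme A, was low in Tn and near absent in Treg cells. It was at 0.864, 0.712, 0.676 and 1.16 CPM in WT Tn and at 0.525, 0.283, 1.01 and 0.164 CPM in Aim2-/- Tn. In Treg libraries it had between 0 and 2 counts each, under the floor of 3 counts in all 8. The 4 WT libraries held 93 counts in Tn and 4 in Treg, a ratio of 27.0 of Tn over Treg per count sequenced (95% interval 10.2 to 101.2, exact binomial, counting error only). The 4 Aim2-/- libraries held 55 and 5 counts, a ratio of 10.7 (4.32 to 34.3). Gzma passed the filter on low counts in WT through its Tn libraries alone, so a test there had to find it lower in Treg (edgeR adjusted p = 2.1e-05), and in Aim2-/- cells it did not pass.

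Gzmb, which encodes granzyme B, the granzyme best known for inducing apoptosis of target cells, moved the other way. It was at 1.24, 0.909, 0.380 and 0.239 CPM in WT Tn and at 1.27, 0.504, 1.61 and 0.591 CPM in Aim2-/- Tn. In WT Treg it was at 0.641, 1.16, 0.453 and 7.52 CPM, and in Aim2-/- Treg at 1.32, 2.37, 7.65 and 2.49 CPM. WT Treg replicates 1 to 3 lay within the range of WT Tn and replicate 4 stood apart, and in Aim2-/- cells the groups overlapped by replicate 1 of Treg. In WT the log2 fold change was 1.75 ± 0.94 (edgeR adjusted p = 0.12), and without WT Treg replicate 4 it was 0.13 (adjusted p = 0.85). In Aim2-/- cells Gzmb rose, by 1.80 ± 0.57 (edgeR adjusted p = 0.014), a 3.48-fold change. This call was lost without Aim2-/- Tn replicate 2 (adjusted p = 0.052), with all 16 libraries in one fit (0.061) and with no filter on low counts (0.051). DESeq2 called the change in WT as well (adjusted p = 0.042).

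Gzmk, which encodes granzyme K, a trypsin-like granzyme, varied widely among libraries of one group. It was at 0.760, 0.712, 1.65 and 0.341 CPM in WT Tn and at 2.70, 0.504, 5.14 and 1.28 CPM in Aim2-/- Tn. It was at 0, 0.376, 0.0302 and 1.33 CPM in WT Treg, and at 0.0377, 0.323, 1.45 and 1.86 CPM in Aim2-/- Treg. The groups overlapped in every comparison, and WT Treg replicates 1 and 3 and Aim2-/- Treg replicate 1 were under the floor. The log2 fold change of Treg against Tn was -1.05 (95% interval -3.26 to 1.16) in WT and -1.38 (-3.26 to 0.49) in Aim2-/- cells, with edgeR adjusted p of 0.35 and 0.15. Without WT Treg replicate 4, the change in WT was -2.55 and was called (adjusted p = 0.033).

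Serpina3g and Serpina3f belong to the expanded mouse clade A3. Serpina3g is known as an inhibitor of cathepsin B in activated T cells, and Serpina3f as an inhibitor of trypsin-like proteases. Serpina3g was at 4.84, 2.49, 9.12 and 8.38 CPM in WT Tn and at 5.51, 3.97, 15.2 and 3.45 CPM in Aim2-/- Tn. It was at 4.69, 11.3, 2.75 and 22.6 CPM in WT Treg, and at 4.79, 19.6, 27.6 and 37.9 CPM in Aim2-/- Treg. The highest Treg library was at 8.21 times the lowest in WT and 7.90 times in Aim2-/- cells, and in Tn at 3.66 and 4.40 times. Serpina3f was at 1.45, 0.949, 5.70 and 3.48 CPM in WT Tn and at 1.61, 1.48, 4.50 and 1.08 CPM in Aim2-/- Tn. It was at 1.99, 6.77, 1.27 and 15.8 CPM in WT Treg, and at 2.11, 10.2, 19.8 and 21.6 CPM in Aim2-/- Treg. WT Treg replicates 1 and 3 and Aim2-/- Treg replicate 1 were the 3 lowest Treg libraries for both genes, and they overlapped with Tn.

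In Aim2-/- cells both serpins rose with culture. The log2 fold change was 2.63 ± 0.66 for Serpina3f (edgeR adjusted p = 0.0039), a 6.19-fold change, and 1.68 ± 0.61 for Serpina3g (edgeR adjusted p = 0.026), a 3.20-fold change. The Serpina3g call was lost without any one of Aim2-/- Tn replicates 1, 2 and 4 and Treg replicate 4, with adjusted p of 0.091, 0.098, 0.069 and 0.11. It was also lost with no filter on low counts (0.12). In WT the changes were 1.12 ± 0.82 for Serpina3f and 0.70 ± 0.64 for Serpina3g, with edgeR adjusted p of 0.23 and 0.34. Without WT Treg replicate 4 they were 0.23 and 0.03. Serpina3f made up 22.8% to 38.5% of the counts of the pair in the 8 Tn libraries and 29.9% to 41.8% in the 8 Treg libraries.

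Serpinb9, the mouse inhibitor of granzyme B, stayed close to one level in all groups. It was at 12.1, 12.5, 12.7 and 9.51 CPM in WT Tn and at 12.4, 9.01, 11.7 and 11.6 CPM in Aim2-/- Tn. It was at 9.58, 10.9, 8.0 and 12 CPM in WT Treg, and at 9.21, 11.6, 10.6 and 11.9 CPM in Aim2-/- Treg. The ranges of all groups overlapped. The log2 fold change of Treg against Tn was -0.24 (95% interval -0.59 to 0.11) in WT and -0.05 (-0.35 to 0.25) in Aim2-/- cells, intervals that leave out a change of 2-fold in either direction.

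Serpinb6b, a clade B serpin and a mouse relative of human SERPINB6, fell in culture. It was at 9.50, 9.45, 11.7 and 9.44 CPM in WT Tn and at 10.5, 7.69, 13.9 and 8.50 CPM in Aim2-/- Tn. It was at 3.54, 3.44, 3.32 and 6.11 CPM in WT Treg, and at 3.43, 4.70, 5.89 and 6.05 CPM in Aim2-/- Treg. All Tn libraries were above all Treg libraries. The log2 fold change was -1.32 ± 0.21 in WT (edgeR adjusted p = 0.00026), 2.50-fold lower, and -1.02 ± 0.23 in Aim2-/- cells (edgeR adjusted p = 0.0014), 2.03-fold lower.

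**Figure D2:**
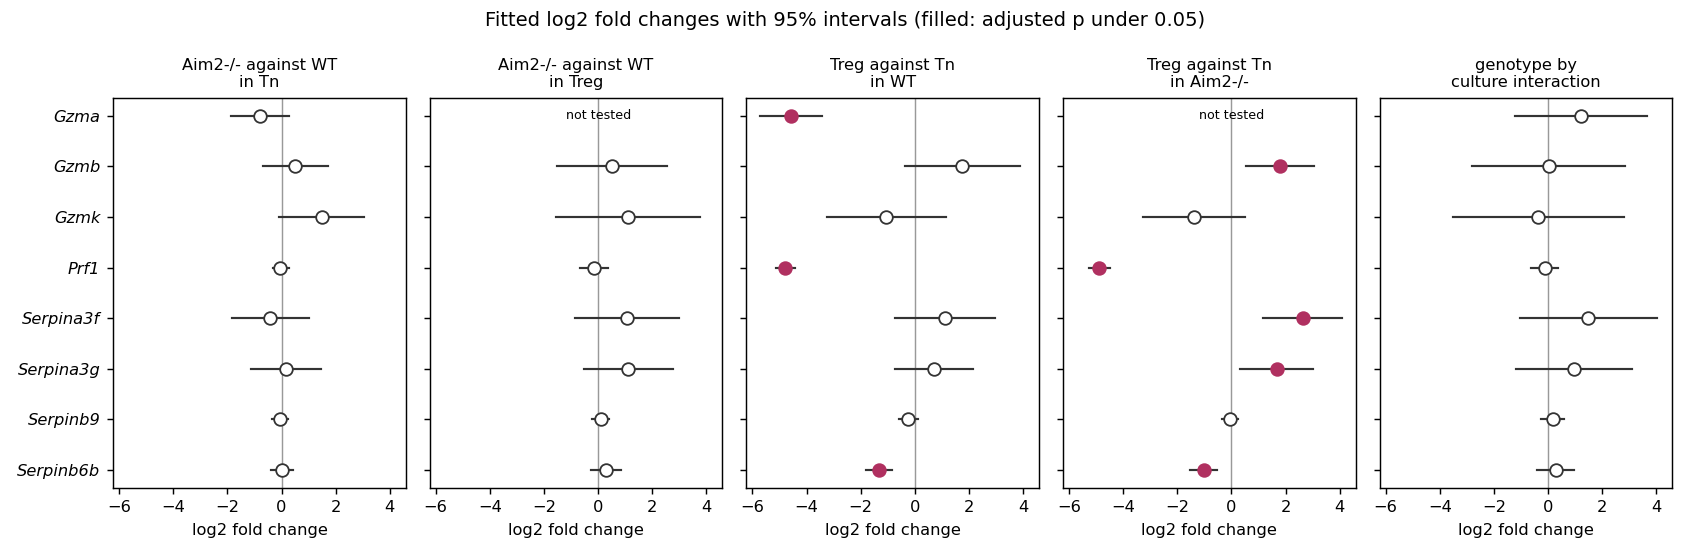
Fitted log2 fold changes of the 8 genes in each comparison, with 95% intervals. Points are estimates from edgeR, filled at an adjusted p under 0.05. Prf1 and Serpinb6b are lower in Treg than in Tn cells in both genotypes, Gzmb, Serpina3f and Serpina3g are higher in Aim2-/- cells, and no point is filled in the genotype and interaction panels.

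In WT cells, 3 of the 8 genes were called in Treg against Tn, all lower (Prf1, Gzma and Serpinb6b) and none higher. The direction of Gzma was set by the filter, which it passed through Tn alone, and 2 of the other 7 were called. Of 13675 genes tested, 76.9% were called, 37.7% higher and 39.2% lower, a larger share than the 3 of 8. The WT libraries of the 2 states did not overlap for the same 3 genes, against 72.9% of all genes tested. In Aim2-/- cells, 5 of 7 genes tested were called, 3 higher (Gzmb, Serpina3f and Serpina3g) and 2 lower (Prf1 and Serpinb6b). There, 79.3% of 13713 genes were called, 39.1% higher and 40.2% lower. The libraries did not overlap for 2 of the 7, against 74.8% of all genes. The median log2 fold change of the genes tested was -0.64 in WT and -0.05 in Aim2-/- cells, beside medians of -0.05 and -0.04 over all genes.

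The genotype comparisons gave no call among these genes. In Tn cells 0 of 8 were called at an adjusted p under 0.05 and 0 at an unadjusted p under 0.05, where edgeR called 0.231% of 13441 genes. DESeq2 and limma-voom also called 0 of the 8. WT and Aim2-/- libraries overlapped for all 8 genes, and did not overlap for 6.95% of all genes tested. The estimate farthest from 0 was that of Gzmk, at 1.48 (95% interval -0.10 to 3.06, edgeR adjusted p = 0.51). Gzma was at -0.80 (-1.86 to 0.27), Gzmb at 0.51 (-0.69 to 1.71), Serpina3f at -0.41 (-1.83 to 1.00) and Serpina3g at 0.18 (-1.11 to 1.46), all on the log2 scale. The intervals were narrower for Prf1 (-0.33 to 0.26), Serpinb9 (-0.37 to 0.25) and Serpinb6b (-0.38 to 0.43).

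In Treg cells 0 of 7 genes tested were called, and 0 at an unadjusted p under 0.05, where edgeR called 0.219% of 13221 genes. DESeq2 and limma-voom called 0 as well. The libraries of the genotypes overlapped for all 7, and did not overlap for 2.26% of all genes. Serpina3g had a mean of 10.3 ± 8.94 CPM (SD, n = 4) in WT and 22.5 ± 14.0 CPM in Aim2-/- Treg. Its log2 fold change of 1.12 had a 95% interval from -0.51 to 2.75. For Serpina3f the means were 6.45 ± 6.68 and 13.4 ± 9.06 CPM, and the log2 fold change of 1.06 had an interval from -0.86 to 2.98. Neither difference passed the test, and the intervals include both no difference and one of several fold. The log2 fold changes of Gzmk (1.11), Gzmb (0.52), Serpinb6b (0.29), Serpinb9 (0.09) and Prf1 (-0.16) had intervals that include 0, and edgeR's adjusted p was 0.9994 for all 7. The 4 WT and 4 Aim2-/- Treg libraries held 4 and 5 counts of Gzma.

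The interaction term asked whether the culture effect differed between genotypes. None of the 8 was called, or had an unadjusted p under 0.05, where edgeR called 0.0205% of 14669 genes, and DESeq2 and limma-voom called 0 of the 8. The rise of Serpina3f, Serpina3g and Gzmb that was called in Aim2-/- and not in WT cells is therefore not shown to differ between them. The interaction estimates were 1.48 (95% interval -1.04 to 4.01) for Serpina3f, 0.95 (-1.19 to 3.10) for Serpina3g and 0.02 (-2.81 to 2.85) for Gzmb. The comparisons share libraries, since each group enters a genotype and a culture comparison.

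Levels were compared between genes per kilobase of exon. In WT Tn, Prf1 was highest at 13.5 ± 2.11 CPM per kb (SD, n = 4), apart from all others. Serpinb6b followed at 4.43 ± 0.485, and its range did not overlap with that of Serpinb9, at 3.35 ± 0.422. From Serpinb9 down through Serpina3g (2.95 ± 1.48), Serpina3f (1.26 ± 0.946), Gzma (0.847 ± 0.219), Gzmk (0.623 ± 0.399) and Gzmb (0.483 ± 0.325), neighbours in the order overlapped. In Aim2-/- Tn, Prf1 was again apart at 13.1 ± 1.72 CPM per kb, and every other neighbour overlapped down to Gzma at 0.494 ± 0.374.

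The order was different in Treg cells, where Serpina3g stood first and Prf1 near the end. Per kilobase, Serpina3g was at 4.91 ± 4.25 CPM in WT Treg, and all neighbours overlapped from there through Serpinb9 (2.90 ± 0.494), Serpina3f (2.82 ± 2.92), Serpinb6b (1.81 ± 0.593), Gzmb (1.70 ± 2.37), Prf1 (0.498 ± 0.0546), Gzmk (0.313 ± 0.448) and Gzma (0.0340 ± 0.0303). In Aim2-/- Treg the order was Serpina3g (10.7 ± 6.63), Serpina3f (5.87 ± 3.96), Serpinb9 (3.10 ± 0.347), Gzmb (2.41 ± 1.98), Serpinb6b (2.22 ± 0.539), Gzmk (0.660 ± 0.629), Prf1 (0.448 ± 0.112) and Gzma (0.0438 ± 0.0330). There, Serpinb6b did not overlap with Gzmk, nor Prf1 with Gzma, and the other neighbours did.

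The Treg libraries high in the Serpina3 genes were also high in Tbx21, the master transcription factor of Th1 cells. Tbx21 was at 14.7, 49.8, 18.8 and 127.0 CPM in WT Treg and at 19.3, 75.3, 134 and 137 CPM in Aim2-/- Treg. Ifng, the Th1 cytokine gene, was at 1.15, 4.49, 0.936 and 20.7 CPM in WT Treg and at 2.42, 6.57, 13.6 and 25.4 CPM in Aim2-/- Treg. Foxp3 was at 560.1, 573, 496 and 278 CPM in WT Treg and at 560.3, 523, 329 and 288 CPM in Aim2-/- Treg. WT replicate 4 and Aim2-/- replicates 3 and 4 were thus the 3 highest Treg libraries for Serpina3f, Serpina3g, Gzmk, Tbx21 and Ifng, the 3 highest for Gzmb also, and the 3 lowest for Foxp3. The part of a difference between cultures in the values of the serpins and granzymes was not tested.

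**Figure D3:**
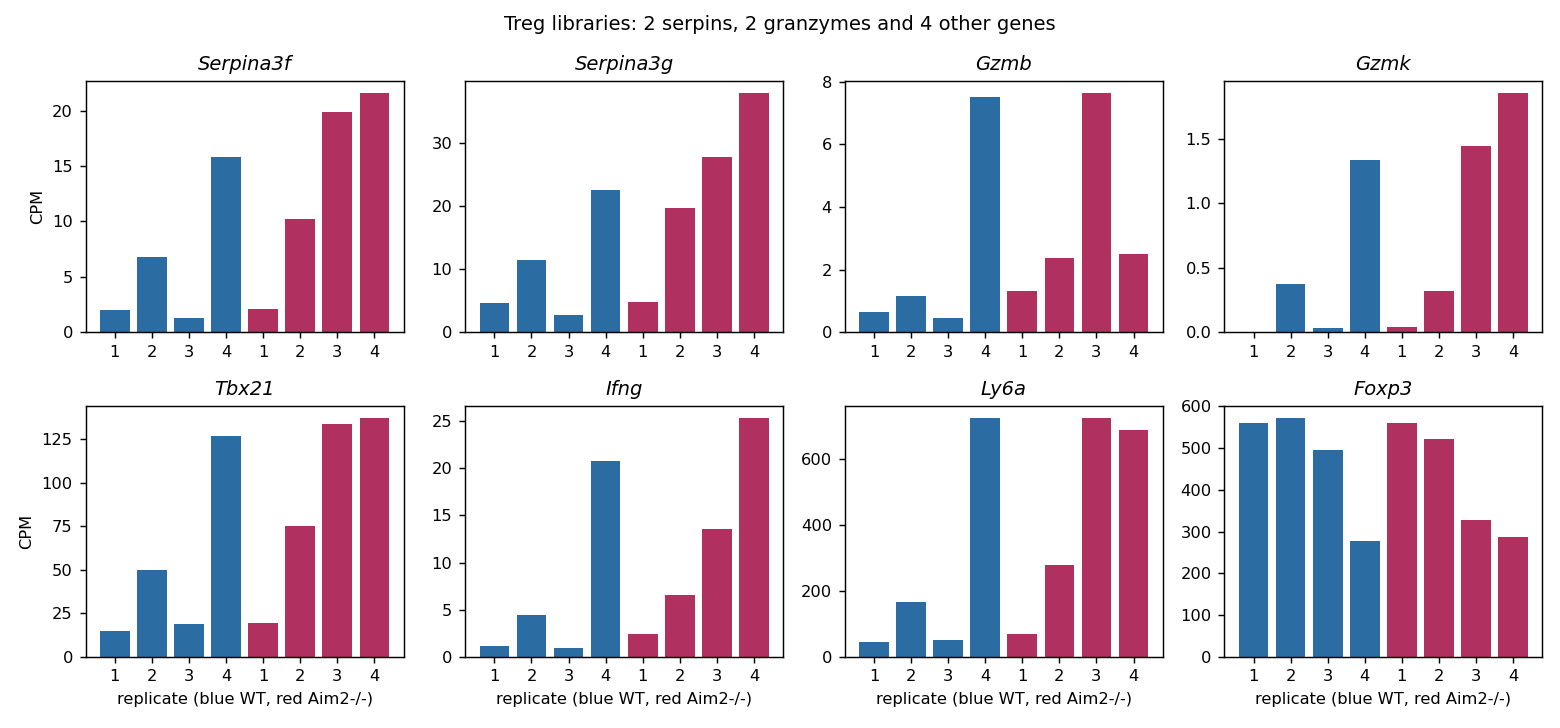
CPM of Serpina3f, Serpina3g, Gzmb and Gzmk, and of Tbx21, Ifng, Ly6a and Foxp3, in the 8 Treg libraries (bars, 1 per library, blue for WT and red for Aim2-/-). WT replicate 4 and Aim2-/- replicates 3 and 4 are the highest in the first 7 genes and the lowest in Foxp3, so that high and low libraries occur in both genotypes.

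Across all 16 libraries, the genes whose log2 CPM was most like that of each of the 8 were found by Pearson's r, as a description, since the points share the difference between Tn and Treg. Ly6a, which encodes the surface antigen Sca-1, was the most alike to Serpina3f (r = 0.917) and Serpina3g (r = 0.923), followed by Gpm6b (0.915 and 0.912), and then by Ptpn6 for Serpina3f (0.897) and Ifng for Serpina3g (0.907). Ly6a was at 43.8, 167, 50.7 and 724 CPM in WT Treg and at 69.3, 279, 722 and 687 CPM in Aim2-/- Treg. For Prf1 they were Hcst (0.998), which encodes the signalling adaptor DAP10, Rnf167 (0.997) and Shisa5 (0.997). For Serpinb6b they included Ly6c2 (0.976) and H2-T22 (0.968). For Gzma they were Por (0.952), Klhl6 (0.947) and Trav7-4 (0.944), and for Gzmk they were Isoc2a (0.935), Adgrd1 (0.895) and Them6 (0.889). Gzmb was most like Gsap (0.878), Sesn2 (0.870) and Gbp2 (0.867), and Serpinb9 was most like Tuba1a (0.777), Adgrd1 (0.762) and Gm9625 (0.743). Within the 8, Serpina3f and Serpina3g had r = 0.97, and Gzma and Prf1 had r = 0.90.

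Other cell types that carry these transcripts were looked for through their markers. Klrb1c, which encodes the NK cell receptor NK1.1, was at 3.07, 1.78, 6.42 and 4.16 CPM in WT Tn and at 2.89, 2.77, 7.17 and 1.54 CPM in Aim2-/- Tn, and at 0 to 0.0675 CPM in Treg. The summed level of 7 NK cell markers was 2.49 to 8.02 CPM in WT Tn, 2.72 to 10.8 CPM in Aim2-/- Tn and at most 0.151 CPM in Treg libraries. Ncr1, a defining NK cell marker, was at 0 in 3 of the 4 WT Tn libraries and at 0.239 CPM in replicate 4, at 0 to 0.150 CPM in Aim2-/- Tn and at 0 in all Treg libraries. Aim2-/- Tn replicate 3, highest in the summed NK markers at 10.8 CPM, was also the highest Tn library for Gzmk, Gzmb, Serpina3g and Serpinb6b. The highest Tn library was WT replicate 3 for Prf1, Serpina3f and Serpinb9, and WT replicate 4 for Gzma. Of the 2 markers of CD8 T cells, Cd8a was at 0 to 0.136 CPM in Tn and 0.0604 to 0.337 CPM in Treg libraries. Cd8b1 was at 8.94 to 12.2 CPM in Tn and 1.93 to 3.88 CPM in Treg libraries. It fell in culture by 1.77 ± 0.22 on the log2 scale in WT (edgeR adjusted p = 5e-05). In Aim2-/- cells it fell by 1.79 ± 0.18 (edgeR adjusted p = 2.9e-06). Of 6 T cell markers, 5 were also called lower with culture in WT and 6 in Aim2-/- cells. Beside them, 39.2% of all genes tested were called lower in WT and 40.2% in Aim2-/- cells. The sum of 3 markers of gamma delta T cells was 8.47 to 10.4 CPM in Tn and 2.16 to 5.40 CPM in Treg libraries. The mast cell genes Cpa3, Mcpt4 and Tpsb2 were at 0 in all Treg libraries. The fourth gene of that list was Kit, a growth factor receptor not particular to mast cells. Its level was 0 to 0.937 CPM in Tn and 1.57 to 5.03 CPM in Treg libraries. Kit passed the filter on low counts in WT through its Treg libraries alone. A test there had to find it higher in Treg (3.89 ± 0.58, edgeR adjusted p = 0.00015). In Aim2-/- cells it passed mainly through Treg, and its log2 fold change was 3.02 ± 0.45 (edgeR adjusted p = 6.4e-05). Among myeloid markers, 8 genes summed to 12.4 to 20.0 CPM in Tn and 1.82 to 3.92 CPM in Treg. The B cell gene Ms4a1 was at 0 in all libraries, and 5 B cell markers summed to at most 3.08 CPM. The study's methods describe immunomagnetic selection of naïve CD4+ cells, low in CD44 and high in CD62L, before culture, a step meant to remove such cells. Their part in the Tn values of the granzymes was not tested.

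Genes around the granzyme pathway were followed in lists that held 126 genes, of which 125 were matched to the tables. In the genotype comparisons 0 of 66 tested were called in Tn and 0 of 66 in Treg cells, with 6 and 1 at an unadjusted p under 0.05. The smallest edgeR adjusted p in Tn was 0.25, that of Lyst. In the culture comparisons 53 of 67 were called in WT and 56 of 67 in Aim2-/- cells, which is near the shares of all genes given above.

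Of the other granzymes, Gzmm alone was tested in WT culture. This granzyme of innate-type lymphocytes fell, from 1.43 ± 0.232 CPM in WT Tn to 0.438 ± 0.0545 CPM in WT Treg, a log2 fold change of -1.73 ± 0.24 (edgeR adjusted p = 8.2e-05). In Aim2-/- cells Gzmm fell as well (-1.26 ± 0.27). Gzmc, a granzyme of activated cytotoxic cells, passed the filter there through its Tn libraries alone, with 64 counts over the 4 Tn and 7 over the 4 Treg libraries. None of the 9 other clade A3 serpins passed the filter on low counts in any comparison. Thus Serpina3f and Serpina3g were the measurable members of that clade.

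Among 17 genes of granule maturation and exocytosis tested, 9 were higher and 5 lower in Treg than in Tn cells, in WT and again in Aim2-/- cells, with medians of 0.39 and 0.47. Over all genes, 37.7% and 39.1% were called higher and 39.2% and 40.2% lower in these comparisons. Stx11, a syntaxin of granule fusion, rose from 2.03 ± 0.757 CPM to 30.9 ± 4.66 CPM in WT (log2 fold change 3.90 ± 0.26). Ctsc, the peptidase that activates granzymes, rose from 55.7 ± 7.07 to 199 ± 26.3 CPM (1.81 ± 0.12). Nkg7, a granule membrane protein, rose from 7.11 ± 1.93 to 22.5 ± 13.5 CPM (1.63 ± 0.39). Lyst, a regulator of lysosome size, fell from 130 ± 21.6 to 32.0 ± 0.722 CPM (-2.06 ± 0.12).

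Most other serpins did not pass the filter. In WT, 2 of 25 other clade B serpins were tested and called higher. Serpinb6a rose from 13.8 ± 0.729 to 33.7 ± 7.60 CPM (1.26 ± 0.16), the opposite direction to its relative Serpinb6b, with counts that were not whole in 15 libraries. Serpinb1a, an inhibitor of neutrophil-type proteases, was tested through its Treg libraries alone, with 21 counts over the 4 WT Tn and 127 over the 4 WT Treg libraries. Of 4 serpins of other clades tested in WT, Serpine2 rose (2.18 ± 0.71) and Serpini1 fell (-2.79 ± 0.24). Serpine2 was uneven in WT Treg, at 1.69, 2.40, 1.21 and 10.15 CPM in replicates 1 to 4. In WT Tn it was at 0.409 to 1.14 CPM. Serpinf2 was called lower but was tested through its Tn libraries alone, with 83 counts over the 4 WT Tn and 4 over the 4 WT Treg libraries. In Aim2-/- cells 1 of 5 was called higher and 3 lower. Over all genes tested, 37.7% were called higher and 39.2% lower in WT, and 39.1% and 40.2% in Aim2-/- cells.

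Of 11 cathepsins and cystatins of the papain-like protease system, 3 rose and 7 fell in WT, with a median of -0.42. Ctsw, a cathepsin of cytotoxic lymphocytes, rose from 32.6 ± 5.28 to 196 ± 12.9 CPM (2.56 ± 0.12). Ctsk, Ctsf and Ctso, lysosomal cathepsins, fell by 3.00 ± 0.42, 2.79 ± 0.65 and 2.61 ± 0.27 on the log2 scale. Of these, Ctsk passed the filter through Tn alone, which set its direction, with 16 counts over the 4 WT Treg libraries. Ctsf passed mainly through Tn, with 29 counts over the 4 WT Treg libraries. Of 12 granzyme substrates, 9 rose and 1 fell in WT, with a median of 1.89. Over all genes tested in WT, 37.7% were called higher and 39.2% lower. Hmgb2 (3.15 ± 0.10) and Lmnb1 (2.94 ± 0.11) had the greatest changes, and these genes also have roles in chromatin and the nuclear lamina.

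Death ligands and receptors are the other killing route of T cells, and 2 of 8 rose and 3 fell in WT. Fasl, the ligand, fell from 19.0 ± 9.55 to 5.47 ± 0.617 CPM (-1.83 ± 0.34), and its receptor Fas fell from 19.6 ± 2.64 to 10.1 ± 2.53 CPM (-0.99 ± 0.18). The adaptor Fadd rose by 1.12 ± 0.14 and the kinase Ripk1 by 0.38 ± 0.07. Of 12 transcription factors of cytotoxic genes, 4 rose and 4 fell in WT. Beside both lists, 37.7% of all genes tested in WT were called higher and 39.2% lower. Irf4 rose by 4.44 ± 0.54 and Tbx21 by 4.10 ± 0.72. The WT Tn libraries were uneven for Irf4, at 48.8, 72.55, 12.75 and 18.6 CPM in replicates 1 to 4. Fasl was likewise at 28.9, 25.4, 10.8 and 10.8 CPM in WT Tn replicates 1 to 4. Of the 8 genes described, Gzmb was also higher in WT Tn replicates 1 and 2 than in 3 and 4. Prf1, Serpina3f and Serpina3g were lower in WT Tn replicates 1 and 2 than in 3 and 4. Id2 fell by 2.59 ± 0.15, and Eomes, which drives Prf1 and Gzmb in cytotoxic cells, fell from 16.3 ± 3.67 to 3.16 ± 2.05 CPM (-2.41 ± 0.41). Each of the named changes of these lists had an edgeR adjusted p of 0.018 or less.

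**Figure D4:**
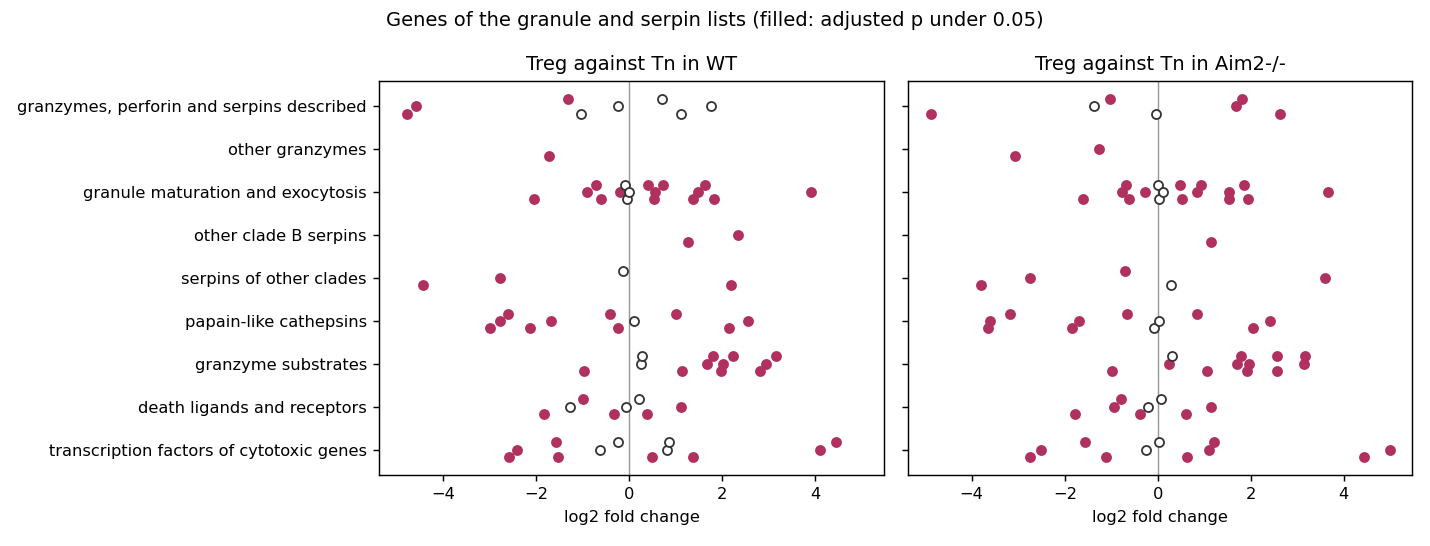
Log2 fold changes of Treg against Tn in WT and Aim2-/- cells for the 8 genes and for the genes of each list that passed the filter (points, 1 per gene, spread vertically for view, filled at an edgeR adjusted p under 0.05). Granzyme substrates lie mostly to the right of 0, and genes of the granule list lie on both sides of it. Prf1 and Gzma lie to the far left, and Gzma is shown in WT alone.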

How the data were processed

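The authors sequenced stranded mRNA libraries, mapped the reads to GRCm38 with STAR, quantified genes with RSEM and deposited 1 table of expected counts per library, per the labels and the study's methods, with no normalization (versions are not given in the sources used here). Groups and replicate numbers came from the sample titles. The names of the deposited tables number some libraries differently, so the replicate block and the split by replicate rest on the titles alone. Expected counts were rounded to whole numbers. A gene was tested if 4 or more of the libraries fitted held 10 counts or more, by edgeR 4.0.16 (robust quasi-likelihood F test, two-sided, TMM), on 8 libraries per comparison and on 16 for the interaction, with Benjamini-Hochberg adjustment over all genes tested and a threshold of 0.05. CPM values use TMM factors over the 16 libraries. DESeq2 1.42.0, limma-voom 3.58.1, RLE factors, other filters, a split of replicates 1 and 2 against 3 and 4, the replicate number as a block and leaving out each library were alternatives. Log2 CPM for correlations used a prior count of 2.

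The 8 genes and the gene lists were chosen with earlier results of these data known, so that their counts are descriptions. Of each list, up to 4 genes with the greatest change among those called in WT culture are named, and every gene called for genotype or interaction, of which there were none. A few genes that these rules name are not reported here. Where a symbol named 2 rows, the row with the larger total was used. Annotation came from GENCODE M21 and promoter sequences from RefSeq (GRCm38.p6), in which all 8 genes had an entry. Windows were aligned with Biopython 1.88. The fitting code was tested on simulated data. Intervals of log2 fold changes include the spread between libraries. The exact binomial intervals and the floors cover counting error only, as the reads carried no molecular identifiers.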

Additional observations from a re-analysis of the deposited data

Results flagged for a closer look

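The highest library stood apart from the other 3 of its group, by a gap beyond Dixon's 95% criterion for 4 values, in 4 of the 32 combinations of gene and group. Chance flags about 1 in 20 groups. Gzmb was at 7.52 CPM in WT Treg replicate 4, against 0.453 to 1.16 CPM in the other 3. Serpinb6b was at 6.11 CPM in the same library, against 3.32 to 3.54 CPM. Serpina3f was at 4.50 CPM in Aim2-/- Tn replicate 3, against 1.08 to 1.61 CPM. Serpinb6b was at 11.7 CPM in WT Tn replicate 3, against 9.44 to 9.50 CPM. WT Treg replicate 4 was also the highest WT Treg library for Tbx21 (127.0 CPM) and the lowest for Foxp3 (278 CPM), and Aim2-/- Tn replicate 3 was the highest Tn library in NK cell markers (10.8 CPM summed). Their part in these values was not tested.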

How the results depend on the processing

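Over 646 refits of the 8 genes under the alternatives, 607 kept direction and side of the threshold, 28 changed sign, 9 lost a call and 2 gained one, and a further 18 could not be tested. None of the 28 was of a called gene. These refits leave out Gzma for genotype in Treg and for Aim2-/- culture, where the main fit did not test it. In Aim2-/- culture Gzma was called lower with no filter on low counts (-3.3, edgeR adjusted p = 0.00036). It was also called with all 16 libraries in one fit (-3.33, edgeR adjusted p = 0.00032), with its Treg libraries under the floor. The number of the 8 called stayed at 0 in both genotype comparisons and the interaction under every alternative, was 2 to 4 in WT culture and 3 to 5 in Aim2-/- culture. It was 3 without Aim2-/- Tn replicate 2, and 2 in WT with at least 10 counts in every library, a filter that Gzma did not pass. The same-numbered libraries correlated by between -0.04 and 0.49 in their deviations from the group means, and not every pair of any comparison was over 0.1, so the numbers were not taken to pair the samples. With the replicate block, Serpina3g was no longer called in Aim2-/- culture (1.60, adjusted p = 0.10), the number of the 8 called was 4 there and 3 in WT, and 29, 41, 10355, 10862 and 2 genes were called in Tn, Treg, WT culture, Aim2-/- culture and interaction.

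Over all genes, the count for genotype in Tn (31) was 18 with at least 10 counts in every library, 50 with all 16 libraries in one fit, 127 with DESeq2, 49 with no filter on low counts and 51 with the split of replicates 1 and 2 against 3 and 4. For genotype in Treg (29) it was 17 with the stricter filter and 52 with DESeq2, and for the interaction (3) it was 0 and 10. The cause was not tested. Leaving out 1 library gave 17 to 28 genes in Tn, 10 to 17 in Treg, and 2 to 5 for the interaction, fits with fewer samples. Signs changed with 1 library left out for log2 fold changes of genotype in Tn of Prf1 (-0.11 to 0.05), Serpina3f (-1.04 to 0.13), Serpina3g (-0.52 to 0.41), Serpinb9 (-0.16 to 0.02) and Serpinb6b (-0.16 to 0.12), and of genotype in Treg of Gzmb (-0.24 to 2.19) and Serpinb9 (-0.01 to 0.18). They also changed for Serpinb9 in Aim2-/- culture (-0.19 to 0.06) and for the interaction of Gzmb (-0.72 to 1.71), Gzmk (-0.93 to 1.21) and Prf1 (-0.26 to 0.03). The ranges of log2 fold changes in brackets are over all alternatives, not over the fits without 1 library alone. Serpinb6b in Tn was -0.02 with limma-voom and -0.01 with the replicate block, and the interaction was -0.03 for Gzmb with DESeq2 and 0.65 for Gzmk with limma-voom. Depth limits Gzma and Gzmk, which were under 3 counts in 8 and 3 of the Treg libraries.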
